A study of Mus musculus with 12 samples.

Results

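Interleukin-1 and interleukin-36 are related cytokines, and 10 genes for their ligands, antagonists and receptors were taken by gene symbol, a list drawn up with earlier results of these data known. A row of the array counted for a gene only when the probe annotation gave it exactly 1 symbol, and 9 of the 10 genes had such a row, out of 19938 genes with 1 symbol. The ligands were Il1a, Il1b and the interleukin-36 genes, which the files write as Il1f6 (IL-36α), Il1f8 (IL-36β) and Il1f9 (IL-36γ). The antagonists were Il1rn and Il1f5, and the receptors were Il1r2 and Il1rl2. Il1r1, which encodes the signaling receptor for interleukin-1, was not analysed here because the annotation used lists no row under that symbol.

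The arrays measured RNA scraped from the endometrial layer of CBAF1 females, the F1 offspring of CBA and C57Bl/6 mice, aged 9 to 16 weeks. Of 12 Affymetrix Mouse Gene 1.0 ST arrays, 4 held RNA from unmated virgin females, 4 from females mated 8 h earlier to vasectomized BALB/c males and 4 from females mated 8 h earlier to intact BALB/c males. Each array held RNA pooled from 4 females, so the spread between arrays is a spread between pools. Vasectomy keeps sperm out of the ejaculate, and with it all fluid made upstream of the cut duct, so the mated groups differ in more than sperm. Controls are labelled as estrus females and, by the methods, were taken in the evening of pro-estrus (2000 h), so that mating, the hour and the stage of the cycle cannot be told apart in comparisons with controls. These groups are called control, vasectomized-mated and intact-mated. Values are log2 expression, on which a difference of 1 is a doubling, and levels are compared between groups within a gene, never between genes.

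Interleukin-1α and interleukin-1β act on the same receptor, while the antagonist made by Il1rn occupies it without signaling and the decoy receptor made by Il1r2 binds ligand without signaling. The 3 interleukin-36 ligands act in the same way on the receptor made by Il1rl2, and the product of Il1f5 blocks it. Both receptors recruit the accessory chain made by Il1rap and signal through MyD88 to NF-κB. Epithelia are a known source of interleukin-1α and interleukin-36, and myeloid cells are a known source of interleukin-1β. On chromosome 2 the interleukin-36 genes neighbour each other in the order Il1f8, Il1f9, Il1f6 and Il1f5, followed by Il1f10 and Il1rn.

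In intact-mated females 8 of the 9 measured genes were higher than in unmated controls and 0 were lower, and the IL-36γ and IL-36α genes rose most, 8.63-fold and 8.16-fold. In vasectomized-mated females 3 genes, those of the IL-36 ligands, were higher and 0 lower. Between the mated groups Il1b, Il1f9, Il1r2 and Il1rn were higher in intact-mated females. Calls needed a change of 1.5-fold or more together with an adjusted p no greater than 0.05, from limma fitted to all rows of the array. Of all 35556 rows, 1.95% were called higher and 1.55% lower in intact-mated females, 0.987% and 0.439% in vasectomized-mated females, and 0.394% and 0.402% between the mated groups. The median log2 fold-change of the 9 genes was 1.09, 0.55 and 0.89 in the 3 comparisons, in the order given, against 0.01, 0.01 and -0.0018 over all rows. At an unadjusted limma p under 0.05, 1 gene was lower in intact-mated females, 0 in vasectomized-mated females and 0 between the mated groups. Both comparisons with controls use the same 4 control arrays, so their values are set side by side and not counted as separate evidence.

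**Figure D1:**
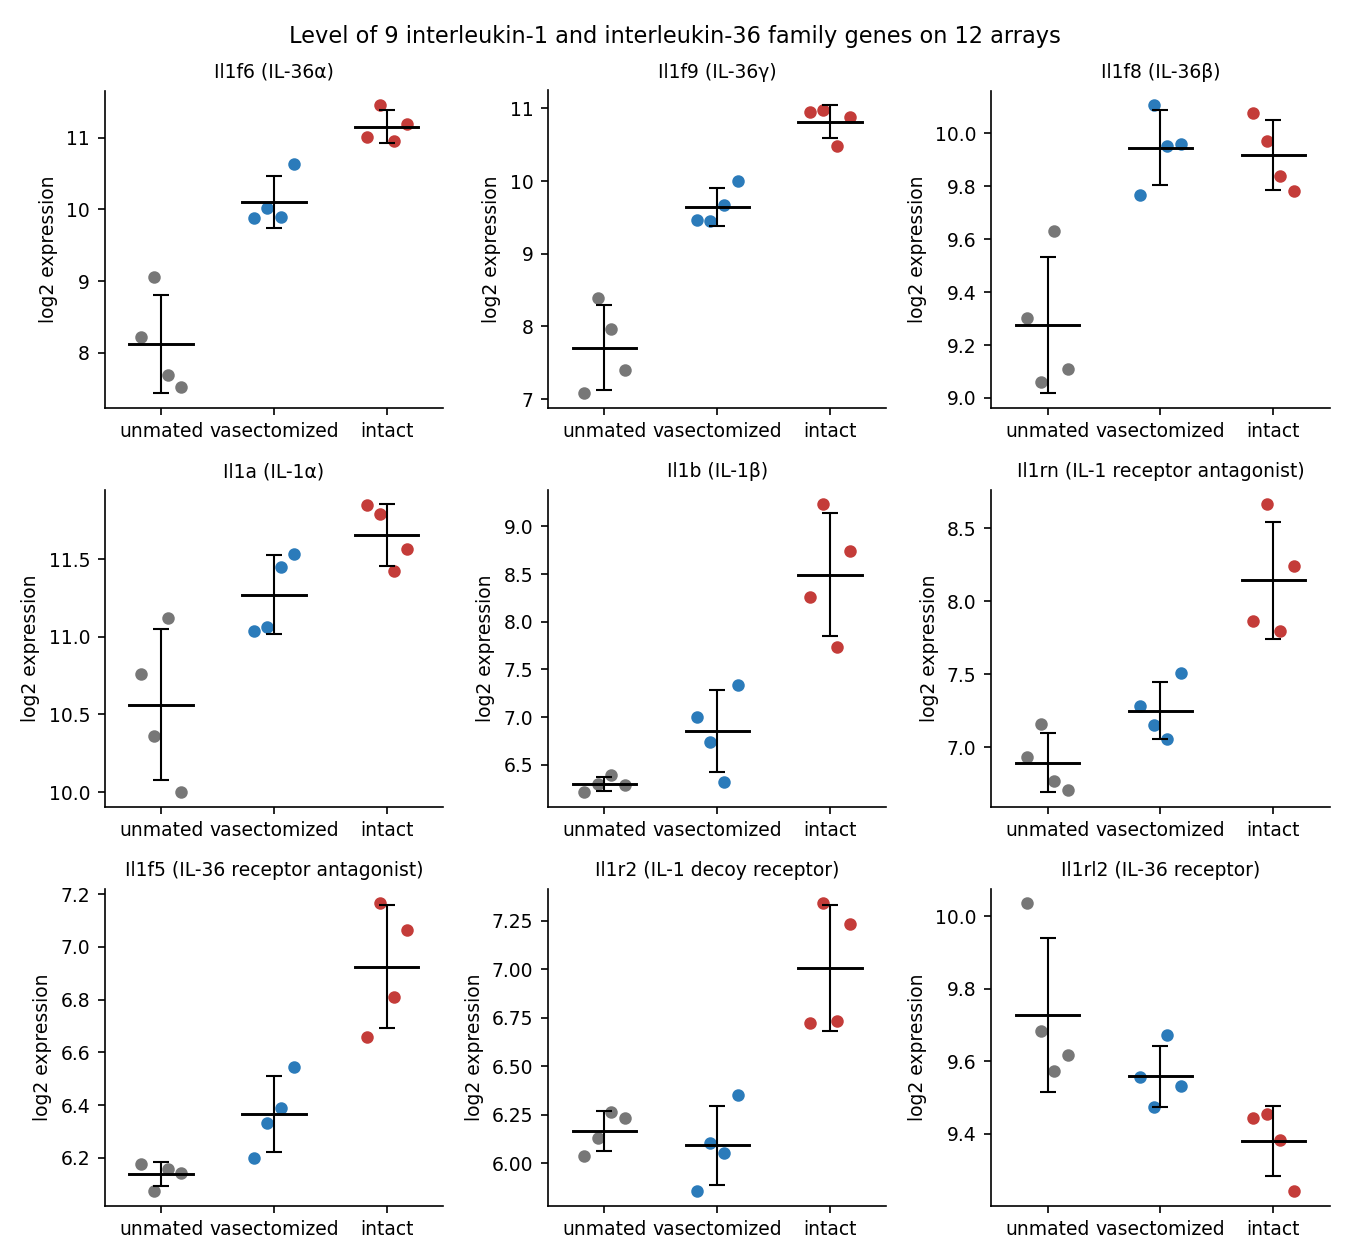
Log2 expression (vertical axis) of 9 family genes in unmated females, in vasectomized-mated females and in intact-mated females; points are the 4 arrays of a group, long bars the mean and whiskers 1 SD. The intact-mated arrays of Il1f6, Il1f9, Il1b, Il1rn, Il1f5 and Il1r2 all lie above those of both other groups, the mated groups of Il1f8 lie at the same level, and the intact-mated arrays of Il1rl2 lie lowest.

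The groups did not overlap for 9 of the 9 genes between intact-mated females and controls, for 4 between vasectomized-mated females and controls, and for 7 between the mated groups. Such separation of all arrays was seen for 14.2%, 10.7% and 14.0% of all rows in the same comparisons. Median levels of the 12 arrays ran from 7.255 to 7.315, and no array pair held identical values. In earlier work on these data controls 1 and 2 lay apart from controls 3 and 4, so each count was also made with either pair alone. With controls 1 and 2 only, 8 genes were higher in intact-mated females and 3 in vasectomized-mated females, and with controls 3 and 4 only 7 and 2.

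**Figure D2:**
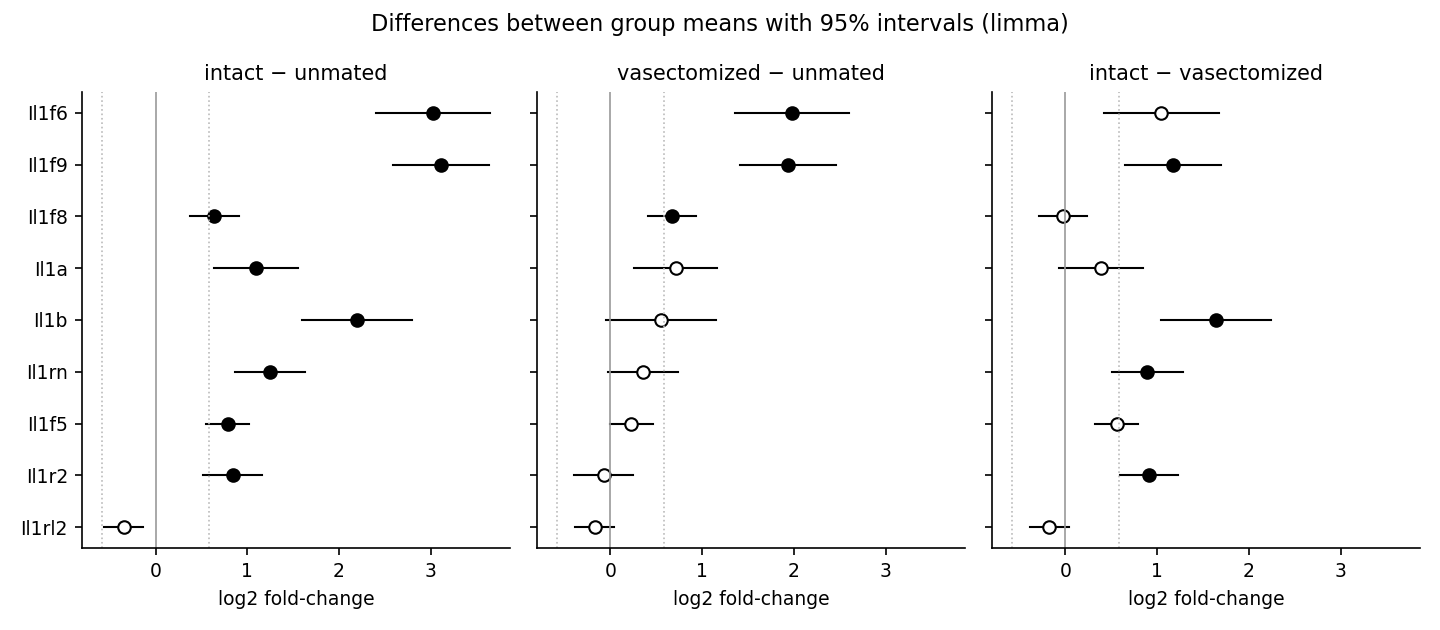
Log2 fold-change between group means (horizontal axis) of 9 family genes with its 95% interval, in 3 comparisons; filled points were called, open points were not, and dotted lines mark a 1.5-fold change. Il1f6 and Il1f9 lie farthest from 0 in both comparisons with controls, at 3.03 and 3.11 in intact-mated females, and Il1b lies farthest from 0 between the mated groups, at 1.64.

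Il1f9 and Il1f6 rose after both matings. The level of Il1f9, the gene of the epithelial ligand IL-36γ, was 7.08, 8.39, 7.97 and 7.40 in controls 1 to 4, 9.46, 9.45, 9.67 and 10.002 in vasectomized-mated females, and 10.95, 10.97, 10.48 and 10.88 in intact-mated females. The 3 groups formed separate steps with no overlap. Il1f9 was 8.63-fold higher than in controls in intact-mated females (log2 fold-change 3.11, SE 0.24, limma adjusted p = 9.22e-06) and 3.83-fold higher in vasectomized-mated females (1.94, SE 0.24, limma adjusted p = 0.00132). These changes ranked 10 and 14 from the top among 19938 genes. The direct difference between the mated groups was 1.17 (SE 0.24, 95% interval 0.65 to 1.70, limma adjusted p = 0.0286). This last call was lost without intact array 2 or 4 or vasectomized array 1, 2 or 3, where the adjusted p was 0.0856, 0.0882, 0.0743, 0.0710 and 0.0797, without variance moderation (0.0751) and with the replicate number as a block (0.0601). Over 22 refits its log2 difference ran from 1.11 to 1.29 and its adjusted p from 0.00741 to 0.0882, and it was called in 15.

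Il1f6, the gene of IL-36α, followed the same steps. Its level was 8.23, 9.05, 7.69 and 7.53 in controls 1 to 4, 9.88, 10.01, 9.90 and 10.64 in vasectomized-mated females, and 11.01, 11.46, 10.95 and 11.20 in intact-mated females. All vasectomized-mated arrays lay above all controls and below all intact-mated arrays. The rise over controls was 8.16-fold in intact-mated females (log2 fold-change 3.03, SE 0.29, limma adjusted p = 3.50e-05) and 3.95-fold in vasectomized-mated females (1.98, SE 0.29, limma adjusted p = 0.00278), each at rank 13 among 19938 genes. Unlike that of Il1f9, the difference between the mated groups missed the threshold, at 1.05 (SE 0.29, 95% interval 0.42 to 1.67, limma adjusted p = 0.0797). It passed in 5 of 22 refits (adjusted p from 0.0121 to 0.197), namely the fit of only these groups, that without dim rows, that without control array 2 and those with either pair of controls. Control array 2 was the highest control for both genes, 0.82 above the next for Il1f6, and without it the rise of Il1f6 in vasectomized-mated females was 2.29.

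Il1f8, the gene of IL-36β, rose by about the same amount after either mating. Its level was 9.30, 9.06, 9.63 and 9.11 in controls 1 to 4, 9.76, 10.11, 9.95 and 9.96 in vasectomized-mated females, and 10.08, 9.97, 9.84 and 9.78 in intact-mated females. The mated groups covered the same range, and both lay above the highest control. The rise was 1.56-fold in intact-mated females (log2 fold-change 0.64, SE 0.12, limma adjusted p = 0.00518) and 1.59-fold in vasectomized-mated females (0.67, SE 0.12, limma adjusted p = 0.00989). The direct difference was -0.03, with a 95% interval of -0.29 to 0.24 (limma adjusted p = 0.936). That interval does not reach the difference measured for Il1f9, and no test was made of one gene against the other. With controls 3 and 4 only, the log2 fold-changes of Il1f8 were 0.55 and 0.58 and fell under the 1.5-fold threshold, as did that in intact-mated females without control array 2 (0.57).

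The RefSeq bases before the start site of Il1f9 and Il1f8, neighbours of which Il1f9 was called between the mated groups and Il1f8 was not, are given on GRCm38.p6, 5′ to 3′ on the strand of the gene, with a match to the AP-1 motif in capitals. The window of Il1f9 spans chr2:24186226-24186475 and that of Il1f8 spans chr2:24152922-24153171, both on the + strand.
Il1f9: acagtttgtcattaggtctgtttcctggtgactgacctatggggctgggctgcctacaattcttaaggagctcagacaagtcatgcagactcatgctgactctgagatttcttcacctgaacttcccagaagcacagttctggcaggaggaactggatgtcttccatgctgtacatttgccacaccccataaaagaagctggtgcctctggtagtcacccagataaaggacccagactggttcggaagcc
Il1f8: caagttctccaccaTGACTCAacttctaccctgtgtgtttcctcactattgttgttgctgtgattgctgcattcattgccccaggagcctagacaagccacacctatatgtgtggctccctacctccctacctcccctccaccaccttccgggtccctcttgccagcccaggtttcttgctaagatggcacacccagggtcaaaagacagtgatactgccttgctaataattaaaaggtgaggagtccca
The AP-1 motif TGANTCA was found once in the 250 bases of Il1f8, and not in those of Il1f9. The motif was also found before Il1a, which was not called between the mated groups, and before Il1rn, which was. It occurs on either strand in 6.8% of 32841 RefSeq windows of this length. These matches describe letters in a window, and no binding was measured.

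The antagonist of this receptor, Il1f5, rose in intact-mated females, with a lower fold-change than Il1f6 and Il1f9. Il1f5 lay at 6.18, 6.07, 6.16 and 6.14 in controls 1 to 4, at 6.20, 6.33, 6.39 and 6.54 in vasectomized-mated females and at 6.66, 7.17, 6.81 and 7.06 in intact-mated females. The steps between groups were small and did not overlap, and the levels stood above at most 44.1% of all rows in each group. The log2 fold-change was 0.79 in intact-mated females (SE 0.11, limma adjusted p = 0.000565) and 0.23 in vasectomized-mated females (SE 0.11, limma adjusted p = 0.279). Il1f5 was higher in intact-mated than in vasectomized-mated females by 0.56 (SE 0.11, limma adjusted p = 0.0224), a 1.47-fold difference that fell short of the fold threshold. It reached the threshold without intact array 1 or 3 or vasectomized array 4, at 0.65, 0.60 and 0.62.

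Il1rl2, the gene of the interleukin-36 receptor, was the measured gene with the lowest fold-change in intact-mated females. It lay at 10.04, 9.68, 9.57 and 9.62 in controls 1 to 4, at 9.56, 9.47, 9.67 and 9.53 in vasectomized-mated females and at 9.44, 9.45, 9.38 and 9.24 in intact-mated females. All intact-mated arrays lay below all others, by a narrow margin. The log2 fold-change against controls was -0.35 (SE 0.10, limma adjusted p = 0.0424), a 1.27-fold difference, so it was not called. Against vasectomized-mated females the difference was -0.18 (95% interval -0.39 to 0.04, limma adjusted p = 0.381).

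Il1b, which encodes interleukin-1β, rose in intact-mated females and was higher there than in vasectomized-mated females. Its level was 6.21, 6.30, 6.40 and 6.29 in controls 1 to 4, 7.005, 6.73, 6.32 and 7.34 in vasectomized-mated females, and 8.26, 9.23, 7.74 and 8.74 in intact-mated females. Intact-mated arrays lay above all others and were spread over a wide range, while vasectomized array 3 lay among the controls. In controls Il1b stood above only 30.9% of rows, so the size of its rise over them is less certain. Il1b was 4.58-fold higher than in controls in intact-mated females (log2 fold-change 2.20, SE 0.28, limma adjusted p = 0.000306). In vasectomized-mated females the log2 fold-change was 0.55 (95% interval -0.05 to 1.15, limma adjusted p = 0.308), which did not pass. The mated groups differed 3.12-fold (1.64, SE 0.28, 95% interval 1.04 to 2.24, limma adjusted p = 0.0130), which ranked 6 from the top among 19938 genes and was called in 21 of 21 refits, with an adjusted p of at most 0.0498. The RefSeq bases before the start of Il1b, the gene with the largest difference between the mated groups, span chr2:129371165-129371389 on the - strand of GRCm38.p6 and are written 5′ to 3′ on the strand of the gene, with a match to the C/EBP motif, which reads on the opposite strand, in capitals. The 25 bases nearest the start, which lie inside the annotated gene, are left out.
Il1b: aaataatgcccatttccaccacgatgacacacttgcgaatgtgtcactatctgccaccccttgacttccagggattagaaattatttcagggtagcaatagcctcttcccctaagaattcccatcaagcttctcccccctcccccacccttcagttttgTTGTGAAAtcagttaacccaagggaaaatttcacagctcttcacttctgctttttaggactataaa
The C/EBP motif TTNCNNAA was found once before Il1b, and it occurs on either strand in 36.9% of RefSeq windows of 250 bases. It was also found before Il1rn, which was called between the mated groups, and before Il1a, Il1f5 and Il1rl2, which were not. It was not found before Il1f9 and Il1r2, which were called there, or before Il1f8, which was not. The NF-κB consensus was found in none of the windows of the measured genes and in 7.3% of all windows, and nothing about NF-κB binding follows from that.

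Il1rn, the gene of the interleukin-1 receptor antagonist, also rose in intact-mated females. It lay at 6.93, 7.16, 6.77 and 6.71 in controls 1 to 4, at 7.28, 7.15, 7.05 and 7.51 in vasectomized-mated females and at 7.87, 8.67, 7.80 and 8.24 in intact-mated females. Intact-mated arrays were the highest, and array 2 was the highest of them for Il1b and Il1rn alike. The log2 fold-change was 1.25 in intact-mated females (SE 0.18, limma adjusted p = 0.000725) and 0.36 in vasectomized-mated females (95% interval -0.03 to 0.74, limma adjusted p = 0.305). Il1rn was higher in intact-mated than in vasectomized-mated females by 0.89 (SE 0.18, limma adjusted p = 0.0253). This call was lost without intact array 2 or 4 or vasectomized array 1, 2 or 3 (adjusted p = 0.0532, 0.0832, 0.0595, 0.0622 and 0.0829) and without variance moderation (0.0662), and it stood in 16 of 22 refits (adjusted p from 0.0128 to 0.0832). Where both Il1rn and Il1f9 were lost, the count of genes higher in intact-mated than in vasectomized-mated females was 2 in place of 4.

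Il1r2, the gene of the decoy receptor, was higher in intact-mated females than in both other groups, which shared a range. It lay at 6.04, 6.13, 6.26 and 6.23 in controls 1 to 4, at 5.86, 6.10, 6.05 and 6.35 in vasectomized-mated females and at 6.72, 7.34, 6.73 and 7.23 in intact-mated females. The rise over controls was 1.79-fold (log2 fold-change 0.84, SE 0.15, limma adjusted p = 0.00298). Against vasectomized-mated females it was 1.89-fold (0.92, SE 0.15, limma adjusted p = 0.0118), called in 21 of 21 refits. The refit without dim rows is not among them, since it left this row out. The difference between vasectomized-mated females and controls was -0.07 (95% interval -0.39 to 0.24, limma adjusted p = 0.839). Il1r2 stood above only 28.4% of rows in controls and 26.8% in vasectomized-mated females, so little can be read from the lack of a difference between them.

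The gene of interleukin-1α, Il1a, differed from Il1b in that its mated groups overlapped. It lay at 10.76, 10.36, 11.12 and 9.998 in controls 1 to 4, at 11.04, 11.07, 11.45 and 11.53 in vasectomized-mated females and at 11.85, 11.79, 11.42 and 11.56 in intact-mated females. Controls were widely spread, and control array 3 overlapped with vasectomized-mated arrays. Il1a was 2.14-fold higher than in controls in intact-mated females (log2 fold-change 1.09, SE 0.21, limma adjusted p = 0.00556). In vasectomized-mated females the log2 fold-change was 0.71 (95% interval 0.25 to 1.17, limma adjusted p = 0.0866), which rose to 0.90 and passed without control array 3 (limma adjusted p = 0.0240, range over 22 refits 0.0240 to 0.213). The mated groups differed by 0.39 (95% interval -0.07 to 0.84, limma adjusted p = 0.376).

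The change of each ligand was set against that of its antagonist by subtracting their log2 values on the same array, which shows unequal change and no ratio of molecules. Il1b minus Il1rn was -0.59 ± 0.24 (SD, n = 4) in controls, -0.40 ± 0.24 in vasectomized-mated females and 0.35 ± 0.28 in intact-mated females. Intact-mated arrays lay above both other groups, so the measured rise of Il1b was larger than that of its antagonist there. In controls Il1b stood above only 30.9% of rows and Il1rn above 43%, so the size of this difference is uncertain. For Il1a minus Il1rn the 3 groups overlapped, at 3.67 ± 0.53, 4.02 ± 0.27 and 3.51 ± 0.37.

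Among the interleukin-36 genes, Il1f6 minus Il1f5 was 1.99 ± 0.72 in controls, 3.74 ± 0.25 in vasectomized-mated females and 4.23 ± 0.11 in intact-mated females. Il1f9 minus Il1f5 was 1.57 ± 0.62, 3.28 ± 0.14 and 3.89 ± 0.27 in the same groups. The groups did not overlap for either difference. Il1f5 itself stood above only 27.9% of rows in controls and 32.2% in vasectomized-mated females, near the granule gene Mpo (29.6% in controls). From controls to vasectomized-mated females these differences changed by 1.76 and 1.71, which largely restates the changes of Il1f6 and Il1f9 (1.98 and 1.94). Between the mated groups, where Il1f5 changed by 0.56, they changed by 0.49 and 0.62, against 1.05 and 1.17 for Il1f6 and Il1f9 alone. Il1f8 minus Il1f5 instead was 3.14 ± 0.23, 3.58 ± 0.15 and 2.99 ± 0.31, with overlapping groups. No test was made on these differences.

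**Figure D3:**
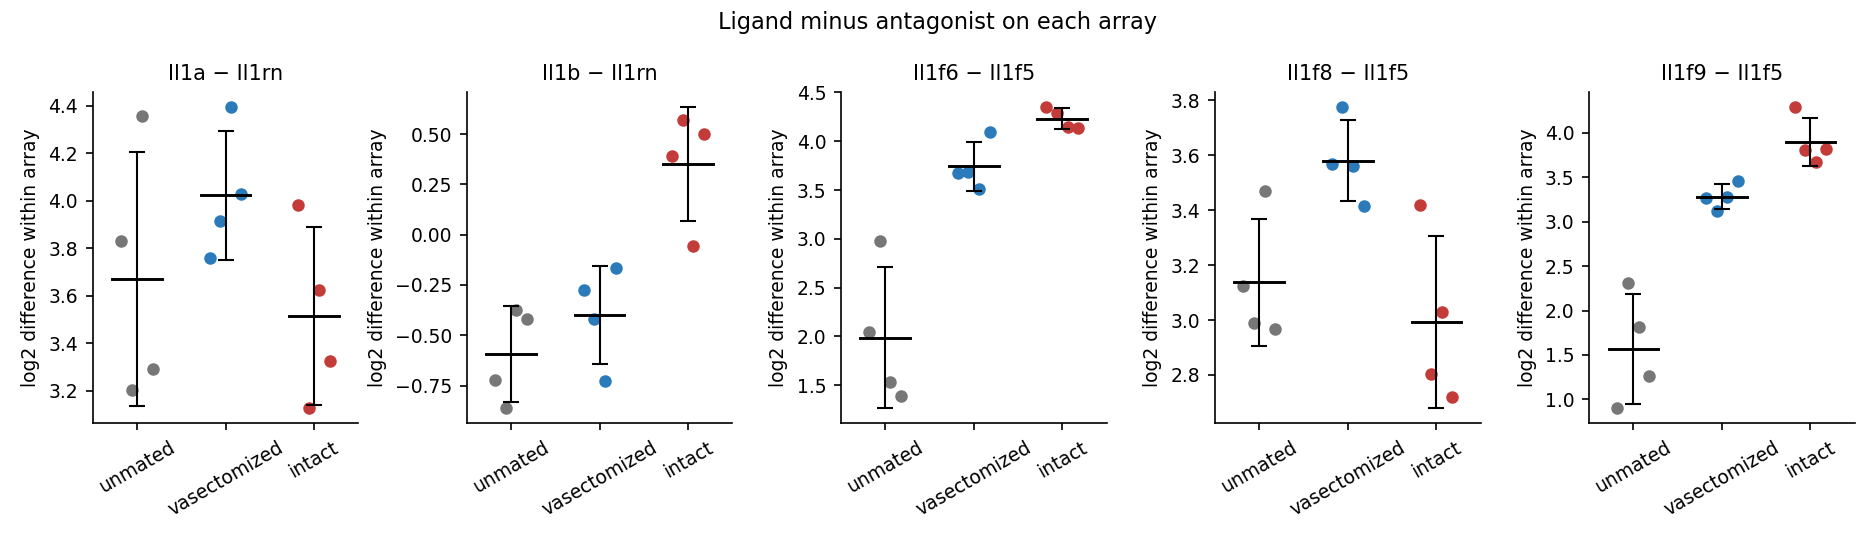
Log2 value of a ligand gene minus that of its antagonist gene on the same array (vertical axis), in unmated females, in vasectomized-mated females and in intact-mated females; points are arrays, long bars means and whiskers 1 SD. Il1f6 minus Il1f5 and Il1f9 minus Il1f5 rise in steps from unmated to intact-mated, while Il1b minus Il1rn is higher in the intact-mated group alone.

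Other genes of the family did not pass the test. Of 11 listed ligands, receptors and regulators, 10 were measured, and 0 were called in any of the 3 comparisons. At an unadjusted limma p under 0.05, 3 were higher and 1 lower in intact-mated females, 1 and 0 in vasectomized-mated females, and 3 higher and 2 lower between the mated groups. Il33, the gene of the alarmin interleukin-33, had a log2 fold-change of 0.55 in intact-mated females (SE 0.19, limma adjusted p = 0.101) and of -0.04 in vasectomized-mated females. Il18bp, whose product neutralizes interleukin-18, had 0.52 (SE 0.06, limma adjusted p = 0.000193) and 0.29, under the fold threshold. The accessory chain Il1rap lay at 0.09 (95% interval -0.12 to 0.30) in intact-mated females.

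Among genes of inflammasomes and of proteases a small number rose. Of 20 measured inflammasome and protease genes, 3 were higher in intact-mated females and 2 in vasectomized-mated females, and 0 were lower. They were Nlrc4, an inflammasome sensor (log2 fold-changes of 1.20 and 0.76), Casp4, which encodes caspase-11 (0.92 and 0.88), and, in intact-mated females, Gsdmd, whose product forms the pores through which interleukin-1β leaves cells (0.70). Casp1, which encodes the protease that matures interleukin-1β, lay at 0.07 and 0.25 and was not called. With controls 3 and 4 only, 4 genes of this list were higher than in controls in each mated group. The median of the list was 0.13 and 0.11.

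Of 17 measured genes of receptor signaling, 2 were higher in intact-mated females. Irak3, which restrains signaling from these receptors, had log2 fold-changes of 0.98 and 0.29 and differed between the mated groups by 0.69 (SE 0.14, limma adjusted p = 0.0280). Tifa, an adaptor that binds TRAF6, had 0.66 and 0.60 and was the 1 gene higher in vasectomized-mated females (0 with controls 3 and 4 only). The median of the list was 0.03 and 0.07. A list of 30 genes that interleukin-1 and interleukin-36, and other stimuli too, are known to induce was measured in full, and 3 of them are also neutrophil markers. Of these genes 20 were higher in intact-mated females, 12 in vasectomized-mated females and 10 between the mated groups, with 0 lower and medians of 1.00, 0.42 and 0.53. The largest changes were those of the chemokines Cxcl2 (4.24 and 2.88) and Cxcl5 (4.23 and 2.37), of Il17c, an epithelial cytokine (2.93 and 1.504), and of Nos2, the inducible nitric oxide synthase (2.90 and 1.39). These lists were written with results of these data known, and their counts describe the list and support nothing further.

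Markers of other cells moved with some of the family genes. Of 25 listed neutrophil markers 21 were measured, and 6 were higher and 1 lower in intact-mated females, 0 higher and 1 lower in vasectomized-mated females, and 5 higher and 0 lower between the mated groups. With controls 3 and 4 only, 7 were higher and 2 lower in intact-mated females, and 1 and 2 in vasectomized-mated females. Their mean log2 level ran from 7.23 to 7.29 in controls, from 7.319 to 7.455 in vasectomized-mated females and from 7.56 to 7.80 in intact-mated females. Cxcr2, the chemokine receptor of neutrophils, lay at 4.89, 5.16, 5.04 and 5.08 in controls 1 to 4, at 4.97, 5.62, 4.96 and 5.90 in vasectomized-mated females and at 6.55, 7.78, 7.22 and 7.58 in intact-mated females. Vasectomized array 4, the highest of its group for Cxcr2, was also the highest of its group for Il1b, Il1rn, Il1r2, Il1f5, Il1f6 and Il1f9. Intact array 2, the highest of all for Cxcr2, was the highest of all for Il1b, Il1rn, Il1r2, Il1f5, Il1f6 and Il1f9 too. The lowest arrays matched less. Intact array 1, the lowest of its group for Cxcr2, was the lowest for Il1r2 and Il1f5, but intact array 3 was the lowest for Il1b, Il1rn, Il1f6 and Il1f9. Vasectomized array 3, the lowest of its group for Cxcr2, was the lowest for Il1b and Il1rn, but not for Il1r2, Il1f5, Il1f6 and Il1f9. Hdc, the histidine decarboxylase, S100a9 and Csf3r, the receptor for G-CSF, rose by 1.48, 1.43 and 1.14 in intact-mated females. For Hdc the groups overlapped, since control array 2, at 9.90, lay within the intact-mated range of 9.58 to 10.07. The granule genes Mpo, Elane, Ngp and Camp had group means that differed by at most 0.15 and stood above at most 43.9% of all rows. Padi4, which citrullinates histones, was the 1 lower gene, with log2 fold-changes of -1.05 and -0.73. Ly6g is close in sequence to other Ly6 genes, and its row, at 9.32 to 10.67 in controls, is not read alone as a neutrophil level. The counts and mean levels of the list do include it. The part of neutrophils in the rise of Il1b, Il1rn, Il1r2 and Il1f5 was not tested, and in RNA of whole tissue more cells of a type and more RNA per cell cannot be told apart.

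**Figure D4:**
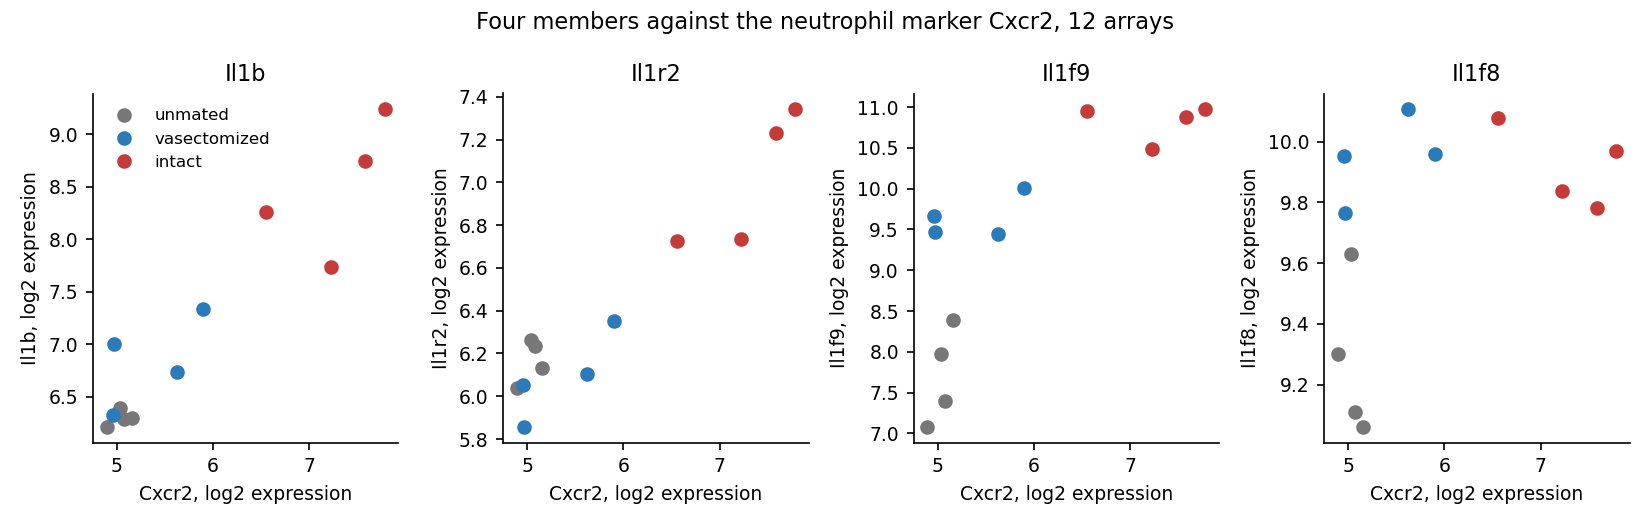
Log2 expression of Il1b, Il1r2, Il1f9 and Il1f8 (vertical axes) against that of the neutrophil marker Cxcr2 (horizontal axis) on 12 arrays, colored by group. Intact-mated arrays stand highest for Cxcr2, at 6.55 to 7.78, and for Il1b, Il1r2 and Il1f9, while vasectomized-mated arrays and controls share one range for Il1r2 and do not overlap for Il1f9 and Il1f8.

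The mean level of the neutrophil list, Ly6g included, was higher on all vasectomized-mated arrays than on any control, by a narrow margin. The levels of Il1f5, Il1f6, Il1f8 and Il1f9 were likewise higher on all vasectomized-mated arrays than on any control. Single markers differed in this, since vasectomized array 3 had Cxcr2 at 4.96, within the range of controls, but S100a9 at 6.25 and Clec4d at 5.69, above the highest controls at 5.99 and 5.49. Of 15 measured macrophage and monocyte markers 1 was higher after either mating, the coreceptor Cd14 (1.60 and 1.18), and 0 were lower (2 and 1 with controls 1 and 2 only), with mean levels of 7.43 to 8.24 in controls and 7.62 to 8.15 in intact-mated females. Of 19 squamous epithelium markers, a tissue known for interleukin-36, 1 was higher (Dsg3) and 2 lower (Krt13 and Calml3) in intact-mated females, 0 higher and 1 lower (Krt13) in vasectomized-mated females, and 1 higher between the mated groups (Krt6b). With controls 1 and 2 only, 2 were higher and 0 lower in intact-mated females, and with controls 3 and 4 only 0 and 1. The mean level of this list was 6.64 to 6.90 in controls, 6.53 to 6.65 in vasectomized-mated females and 6.72 to 6.94 in intact-mated females, without overlap between the mated groups, where 6 of its genes were higher and 0 lower at an unadjusted limma p under 0.05. Against controls, 0 were higher and 5 lower at that p in vasectomized-mated females, and 2 higher and 2 lower in intact-mated females. None of 15 uterine epithelium markers was called with all controls (1 or 2 were higher in intact-mated females with either pair of controls), and the group means of Krt8 and Epcam stood at or above 95.2% of rows. The mean level of this list was 11.63 to 11.72 in controls, 11.68 to 11.75 in vasectomized-mated females and 11.74 to 11.82 in intact-mated females. Intact-mated arrays thus lay above all controls, by a narrow margin. At an unadjusted limma p under 0.05, 3 of its genes were higher and 1 lower in intact-mated females than in controls, and 4 and 2 between the mated groups. Of 14 stroma markers 3 were lower in intact-mated females (Wnt5a, Lum and Col1a1) and 1 in vasectomized-mated females, and the mean level of the list was 9.10 to 10.04 in controls and 8.72 to 9.39 in intact-mated females. With controls 1 and 2 only, 11 and 5 stroma markers were lower in these groups, and with controls 3 and 4 only 1 and 1. The part of these shifts in the family genes was not tested.

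The genes whose levels were most alike to each of the 8 members called in a comparison, over the 12 arrays, are given as a description, since all points share the 3 groups and their arrays. Il1b and Il1rn were each other's closest gene among 19937 others (Pearson r = 0.975), and the next for Il1b were Slfn4, an interferon-induced gene of myeloid cells (0.966), and Nox1, a superoxide-producing oxidase of epithelia (0.965). For Il1rn the next were Fndc4 (0.965) and Lpin2 (0.963). For Il1r2 the closest genes were Cxcr2 (0.953), Klk10 (0.951) and Fam162a (0.945). For Il1f5 it was Shroom1 (0.986), followed by Clec4d, a lectin of myeloid cells (0.982), and Slfn4 (0.972). Il1f6 was closest to Tnfaip3, the feedback inhibitor of NF-κB signaling (0.992), then Pglyrp1, which binds bacterial peptidoglycan (0.987), and Pde4b, a phosphodiesterase of cyclic AMP (0.987). Il1f9 was closest to Chil1 (0.985), Slc39a6, a zinc transporter (0.984), and Clca3a2 (0.984). Il1a was closest to Lama3, a laminin chain of epithelial basement membranes (0.974), Mcur1 (0.955) and Stx7 (0.953), and Il1f8 to Atg9b (0.961), Acp5 (0.959) and Trpv6 (0.959).

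**Figure D5:**
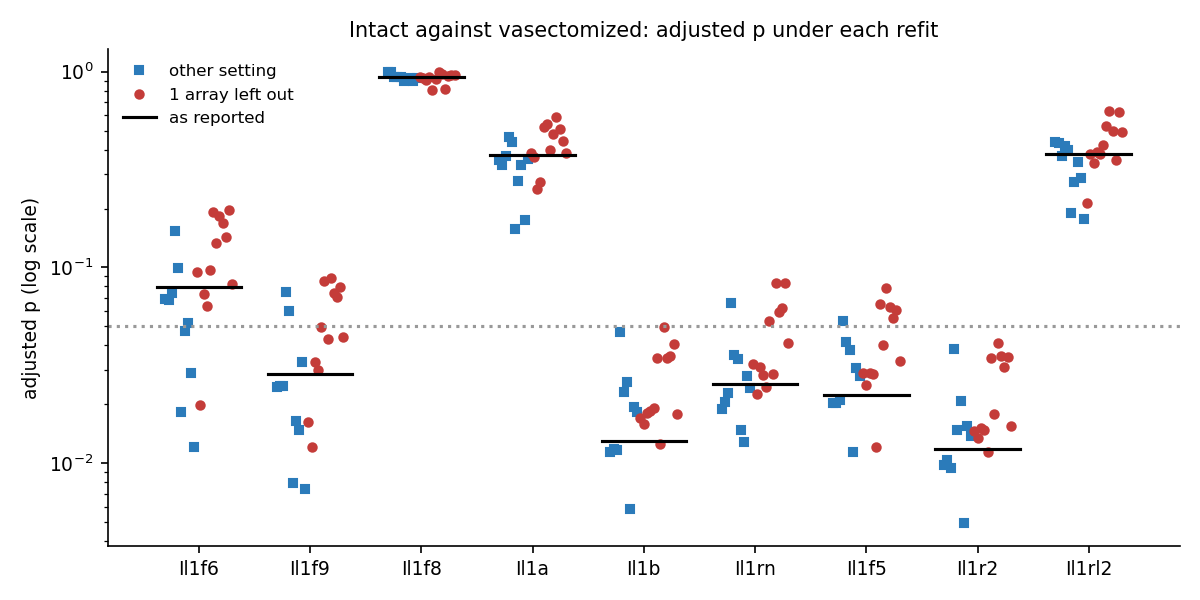
Adjusted p (vertical axis, log scale) of the difference between intact- and vasectomized-mated females for 9 family genes; the bar is the value as reported, circles leave out 1 array and squares are other settings, and the dotted line marks 0.05. The points of Il1b and Il1r2 stay under the line in all refits, those of Il1f9, Il1rn, Il1f5 and Il1f6 lie on both sides, and those of Il1f8, Il1a and Il1rl2 stay above it.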

How the data were processed

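Endometrial RNA of the 3 groups was hybridised to 12 arrays, each of a pool of 4 females. The authors used Partek software to correct background by RMA, adjust for GC content and average the probes of a row, and deposited log2 values, which were used as given. The software version and genome build were not given in the sources used here. This averaging gives all probes of a row equal weight. Groups were taken from the sample titles. Rows (35556) were named through the supplied array annotation, and each family gene had 1 row. limma 3.58.1 in R 4.3.3 was fitted to all rows with 1 mean per group (no trend in the moderation, with 3.26 prior and 9 residual degrees of freedom), with Benjamini-Hochberg correction over all rows and the thresholds of the methods, in place of the plain ANOVA they name. The lowest correlation between arrays of a group was 0.983. The number of arrays limits the precision.

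The gene members, the lists of pathway and cell type genes and the alternatives were chosen with earlier results of these data known. The 9 measured members and every fixed list are described, with up to 4 genes of a list by name, those with the largest change among called genes, or up to 2 where none was called; Mpo, Elane, Ngp, Camp, Padi4, Ly6g, Clec4d, Krt8, Epcam, Casp1 and Il1rap were named in addition, after their values were seen. The 3 genes most alike to a member were taken by Pearson correlation. Promoter windows are RefSeq's on GRCm38.p6 (8 of the 9 measured genes had one, Il1f6 is not in that table), searched on both strands. Alternatives were quantile normalization, median centring, trend and robust moderation, no moderation, the replicate block, a fit of the 2 groups compared, removal of dim rows (mean under 7.28), 1 row per gene, other fold thresholds, either pair of controls and leaving out each array. Averaging several rows per gene did not apply, and Il1r1 minus Il1r2 was not analysed. The code was tested on simulated data.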

Additional observations from a re-analysis of the deposited data

Results flagged for a closer look

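The change from control differed between the mated groups for 4 genes, by the direct test of intact- against vasectomized-mated females in limma. Il1b changed by 1.64 more on the log2 scale in intact-mated females (higher on 4 of 4 arrays than on any vasectomized-mated array), Il1f9 by 1.17, Il1r2 by 0.915 and Il1rn by 0.894, all with adjusted p given in the report. No single array stood apart from its group of 4 by Dixon's criterion in any of 27 groups examined.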

How the results depend on the processing

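Of 27 differences (9 genes in 3 comparisons), 14 kept direction and side of the threshold under every alternative in which they were tested, 24 at most (Il1b, Il1r2 and Il1f5 were not tested without dim rows). The genes higher in intact-mated females than in controls numbered 5 in place of 8 at a 2-fold threshold and 5 without dim rows; with no fold threshold 1 gene, Il1rl2, was lower. The genes higher in intact-mated than in vasectomized-mated females numbered 2 in place of 4 without variance moderation and at a 2-fold threshold, and 2 to 5 when arrays were left out in turn. The lower values came without intact array 2 or 4 or vasectomized array 1, 2 or 3, and the cause was not tested. Reversals concerned differences near 0: Il1r2 between vasectomized-mated females and controls was 0.0072 with controls 1 and 2 only and ran from -0.16 to 0.0043 when arrays were left out, and Il1f8 between the mated groups ran from -0.089 to 0.025 when arrays were left out. Same-numbered arrays of different groups showed no common deviation (correlation from -0.255 to 0.205, over 0.1 in 2 of 12 pairs). Pairs with different numbers ran over a like range, from -0.218 to 0.27. The labels do not say how the numbers were given, so these correlations cannot exclude that some pools share a batch. With the replicate block Il1f9 between the mated groups was no longer called (1.17, adjusted p = 0.0601), and the genes called there numbered 3.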
